A study of Mus musculus with 2 samples.

Results

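Near-gene intergenic MAFK regions are the sites of MAFK occupancy that lie between genes yet close to one. They were mapped by chromatin immunoprecipitation with sequencing (ChIP-seq), in which an antibody to MAFK recovers the bound DNA and regions of enriched reads are called. A member was a region of the authors' optimal list whose summit, the deposited position of highest enrichment, met 4 conditions. The summit lay outside every GENCODE vM21 gene body and more than 1 kb from every transcription start site (TSS). It also lay 50 kb or less from the nearest TSS of a protein_coding gene, and its base was not soft-masked as a repeat. Of 16836 optimal regions on chromosomes 1 to 19 and X, 7419 were outside gene bodies and 6638 of these were also more than 1 kb from every TSS. The 50 kb limit left 3615, and the repeat filter removed 697 of them. The remaining 2918 members made up 17.3% of the regions. By the strand of the nearest gene, 1938 members were upstream and 980 were downstream.

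All samples were of 1 group. They were 2 biological replicates of ES-E14, a mouse embryonic stem cell line of strain 129/Ola that the labels call male, with no treatment or second genotype. Both carry the same biosample and donor, so the spread between them may be partly technical. No control library was analysed here, and read depth is unknown, since regions rather than reads were deposited.

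MAFK is a small MAF protein, a basic leucine zipper factor without a transactivation domain of its own. It binds DNA as a homodimer or as a heterodimer with a CNC protein, among them NFE2, NRF2 and BACH1. Homodimers recognise a palindrome called the MARE, and heterodimers recognise a composite site in which a MAF site is joined to a CNC site of AP-1 type, also known as the antioxidant response element (ARE). Genes of antioxidant defence, heme breakdown and iron storage are known targets of these dimers, and the globin locus control region is a classical site of NFE2 binding.

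The windows below reach 50 bp to either side of the summit and show the sequence classes the results turn on. Capitals mark every composite element TGANTCAGCA (N is C or G) and every ARE core TGANNNNGC (the first N is C or G) on either strand. Where a window has neither, they mark the MAF core TGCTGA or, without that, the AP-1 element TGANTCA (N is C or G). Sequences are from the RefSeq copy of GRCm38, the assembly of mm10, plus strand, 5′ to 3′. The first 3 hold the exact T-MARE palindrome TGCTGANTCAGCA (N is C or G), at chr4:141287061-141287161, chr2:126591448-126591548 and chr1:118621204-118621304. They are the strongest members nearest to Epha2, an ephrin receptor gene, Hdc, which encodes histidine decarboxylase, and Tfcp2l1, a transcription factor gene of naive pluripotency.
Epha2: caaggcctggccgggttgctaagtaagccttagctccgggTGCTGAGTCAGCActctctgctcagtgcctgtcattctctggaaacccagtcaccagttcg
Hdc: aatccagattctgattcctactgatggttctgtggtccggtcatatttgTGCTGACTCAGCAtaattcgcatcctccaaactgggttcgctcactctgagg
Tfcp2l1: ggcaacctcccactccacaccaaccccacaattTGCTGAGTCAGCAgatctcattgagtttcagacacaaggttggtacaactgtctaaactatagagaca
The next 3 hold repeated copies of the composite element, at chr8:27196247-27196347, chr2:69613425-69613525 and chr17:83555118-83555218.
Got1l1: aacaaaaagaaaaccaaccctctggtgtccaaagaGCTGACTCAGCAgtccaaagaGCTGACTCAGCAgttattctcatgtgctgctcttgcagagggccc
Lrp2: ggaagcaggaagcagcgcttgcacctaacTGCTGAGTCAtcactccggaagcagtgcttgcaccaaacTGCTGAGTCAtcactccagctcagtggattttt
Cox7a2l: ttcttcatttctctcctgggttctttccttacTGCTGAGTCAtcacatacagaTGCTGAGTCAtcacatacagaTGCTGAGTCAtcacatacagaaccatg
The next 5 are nearest to genes of heme, iron, glutathione and globin, at chr8:75083933-75084033, chr8:75089684-75089784, chr19:9978562-9978662, chr9:77750690-77750790 and chr7:103861022-103861122.
Hmox1 distal: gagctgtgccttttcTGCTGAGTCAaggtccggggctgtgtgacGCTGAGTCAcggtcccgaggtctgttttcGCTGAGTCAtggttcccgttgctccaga
Hmox1 proximal: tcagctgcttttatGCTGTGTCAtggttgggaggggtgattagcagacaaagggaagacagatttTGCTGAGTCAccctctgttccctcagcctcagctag
Fth1: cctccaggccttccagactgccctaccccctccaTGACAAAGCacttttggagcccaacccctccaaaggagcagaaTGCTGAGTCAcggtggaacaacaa
Gclc: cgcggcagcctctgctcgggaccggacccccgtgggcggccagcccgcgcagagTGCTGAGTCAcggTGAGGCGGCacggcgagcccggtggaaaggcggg
Hbb-y: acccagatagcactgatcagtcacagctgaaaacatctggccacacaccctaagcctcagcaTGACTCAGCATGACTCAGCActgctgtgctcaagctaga
The last 4 are the strongest members of the other classes. These are an ARE core without a composite element, a MAF core without either, an AP-1 element alone, and none. The windows lie at chr17:80497186-80497286, chr14:49860563-49860663, chr13:99860823-99860923 and chr1:92432158-92432258. That of Sos1 also holds an AP-1 element.
Sos1: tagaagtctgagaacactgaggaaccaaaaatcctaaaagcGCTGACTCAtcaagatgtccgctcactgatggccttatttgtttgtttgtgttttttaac
Olfr722: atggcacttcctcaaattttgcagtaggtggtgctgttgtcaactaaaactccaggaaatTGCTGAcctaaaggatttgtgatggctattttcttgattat
Cartpt: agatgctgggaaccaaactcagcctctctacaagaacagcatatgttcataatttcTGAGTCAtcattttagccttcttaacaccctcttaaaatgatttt
Ndufa10: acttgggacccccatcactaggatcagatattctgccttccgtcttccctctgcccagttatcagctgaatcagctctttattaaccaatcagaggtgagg

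The other sequence shown belongs to a member at a tRNA gene. It is a glycine tRNA gene of the RefSeq annotation with 10 bp on each side, written on the strand of the gene. Capitals mark the B box as it was searched (11 bases that begin with GGTTCGA), the internal promoter element of tRNA genes that is known to be bound by TFIIIC. It lies at chr3:96500999-96501090 (minus strand).
tRNA-Gly near Hfe2: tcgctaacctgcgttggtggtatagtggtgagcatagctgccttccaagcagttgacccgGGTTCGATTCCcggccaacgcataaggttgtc

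The strongest near-gene intergenic regions lay upstream and downstream of genes of many kinds. Signal values are the authors' own scores, whose scale is not given in the sources used here, and serve only to rank regions within a list. Across members they ran from 3.8 to 415.2 with a median of 28.8. The first was 16783 bp upstream of Sos1, a guanine nucleotide exchange factor for RAS, at chr17:80497037-80497399. Its signal was 415.2 in the optimal list, and 211.7 and 200.3 in the relaxed lists of the replicates (1 and 2 in this order). The second was 14129 bp upstream of Epha2 at chr4:141286946-141287279, with 413.3 in the optimal list and 217.9 and 194.6 in the replicates. The highest values among members, 217.9 in replicate 1 and 200.3 in replicate 2, were those of Epha2 and Sos1 themselves. These sites were picked by rank in a list made from both replicates, so their high replicate values are not separate support.

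After these came a region 2420 bp downstream of Got1l1 (chr8:27196137-27196475) with a signal of 394.8, and then the distal Hmox1 region, described with its gene list. The others of the first 12 were nearest to Ccl1, a chemokine gene, Lrp2, which encodes the endocytic receptor megalin, Arl1, Hdc, Cox7a2l, Lcor, Kdm5b, an H3K4 demethylase gene, and Cbx7, a Polycomb subunit gene. Their signals ran from 341.4 (Cbx7) to 386.2 (Ccl1). Of these 12 members, 4 held the exact T-MARE, 7 another composite element, and 1, near Sos1, an ARE core without a composite element. Downstream, the leading members after Got1l1, Ccl1 and Hdc were 26727 bp from Fgfr4 (309.1) and 42446 bp from Fgd2 (300.1). Among the 100 strongest members, all with a signal of at least 173.2, 74 were upstream of their gene, 58 held the composite element, 85 held it or the ARE core, and 1 held none of the MAF, ARE or AP-1 elements. Over all members these shares were 66.4%, 24.6%, 56.8% and 22.5% in the same order, and the differences were not tested. Every one of these 100 overlapped a region of both replicates' own thresholded lists, against 37.3% of all members.

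Members with the exact T-MARE had high signals. It was held by 18 of the 100 strongest members and lay within 50 bp of 63 members, or 2.16%, near the 2.14% of all regions of the optimal list. These 63 had a median signal of 113.8, and 60 of them (95.2%, 95% Wilson interval 86.9 to 98.4) overlapped the thresholded lists of both replicates. The 654 members with another composite element had a median signal of 36.1 and 47.7% were in both lists. With an ARE core but no composite element, 940 members had a median of 30.1 and 35.7% in both lists. With a MAF core but neither of these, 530 members had 28.0 and 33.6%. Classes were taken in this order, so members with an ARE core could also hold a MAF core. Members of either class could also hold an AP-1 element. The 73 members with only an AP-1 element had 23.9 and 26.0%, and the 658 with none had 22.0 and 27.7%. Over all regions of the optimal list, 35.4% overlapped both replicates' lists and 81.8% overlapped the conservative list, against 37.3% (1087) and 83.3% (2430) of members.

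In both replicates the exact T-MARE class was highest, followed by the other composite and the ARE core classes. In the relaxed list of replicate 1 the median signal was 58.3 for the exact T-MARE, 17.8 for another composite element, 14 for the ARE core, 13.7 for the MAF core, and 11.3 both for AP-1 and for none. In replicate 2 these medians were 54.4, 19.2, 15.9, 14.5, 14.6 and 12.5. Members with the composite element, exact T-MARE included, were among the strongest 25% of the whole list in 40.7% of cases (292 of 717, interval 37.2 to 44.4). Members with no element were among them in 21% (138 of 658, interval 18 to 24.2; Fisher's exact test, two-sided, odds ratio 2.59, 95% interval 2.04 to 3.29, p = 2.58e-15). Without members at tRNA genes, most of which had no element, the shares were 40.7% and 6.77% (odds ratio 9.47). That group was noticed after the values had been seen, and its signals were high. Leaving it out therefore lowers the share of the no-element class by construction, so the larger odds ratio is no added support.

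**Figure D1:**
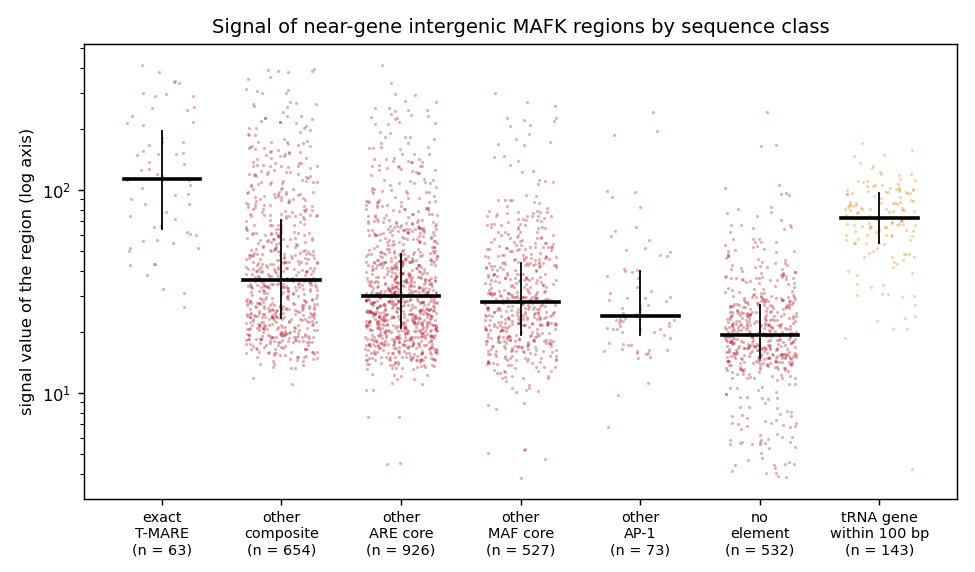
Signal value of each near-gene intergenic region (log axis) by the best sequence element within 50 bp, with members at tRNA genes in a column of their own and left out of the others. Black bars are the median and the range between the quartiles; the exact T-MARE column (median 113.8) and the tRNA column (median 73.1) stand above the others, whose medians run from 19.2 to 36.1.

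The bases in front of the composite element set its forms apart in signal. The form TGACTCAGCA was the one nearest to the summit in 483 members and TGAGTCAGCA in 234, with median signals of 36.8 and 41.6. With the 3 bases before it counted, the commonest form was AGATGACTCAGCA in 60 members. It lacks the second MAF site of the palindrome, its median signal was 29.8, and 24 of 60 were in both replicates' lists. The palindromic TGCTGACTCAGCA was found in 32 members with a median of 113.4, and 31 of 32 were in both lists. TGCTGAGTCAGCA was found in 31 members with a median of 117.3, and 29 of 31 were in both. Between these stood AGCTGACTCAGCA, which lacks the first base of the palindrome, in 39 members with a median of 48.3. Some other forms, picked after their values were seen, did not follow closeness to the palindrome. TCCTGACTCAGCA, also 1 base off it, had a median of 33.0 in 23 members, and AAGTGACTCAGCA, which shares none of the 3 bases, had 66.9 in 9. Position by position, the median was highest with T at the first of the 3 bases (47.4), G at the second (45.6) and C at the last (48.4), which together spell TGC, the start of the palindrome. The palindromic members fall in all 3 of these groups, so these medians do not stand apart from the palindrome's. These are descriptions, since forms were compared on the signal of the same list.

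Repeated elements in a window were rare and went with high signal. Only 23 members had 2 or more separate composite elements within 50 bp. Their median signal was 201.4, and 20 of the 23 were among the strongest 25% of the list (87.0%, interval 67.9 to 95.5). The 694 members with 1 composite element had a median of 38.5 and 39.2% among the strongest 25%, and the 2201 with none had 27.0 and 23.0%. The window near Cox7a2l, an assembly factor of respiratory supercomplexes, holds 3 copies and that near Ankrd55 holds 4. In the Got1l1, Lrp2 and Lcor windows 2 copies follow each other with the same bases around them, as the printed Got1l1 and Lrp2 sequences show. Signals of these were 359.1 (Cox7a2l), 270.1 (Ankrd55), 394.8 (Got1l1), 385.1 (Lrp2) and 352.0 (Lcor). At the low end, the members near Gm47791, Clec4n and Dapk2 had 2 copies each and signals of 32, 31.7 and 23.4, and none of these 3 was in both replicates' lists. ARE cores counted the same way gave median signals of 24.5 with none, 32.9 with 1, 41.2 with 2 and 123.4 in the 11 members with 3 or more. The members of this paragraph were chosen after their values had been seen, and no test was made.

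Near-gene intergenic summits were far richer in MAF-type elements than the sequence beside them. The composite element lay within 50 bp of 717 of 2918 summits (24.6%, interval 23.0 to 26.2) and in 4 of 5836 equally wide windows whose centres lay 1000 bp from the summit on each side (0.0685%). The ARE core occurred in 56.8% of summit windows and 6.96% of flanks, and the MAF core in 57.9% and 7.83%. The T-MARE with 2 mismatches allowed was at 33.8% against 0.463%, and AP-1 at 35.6% against 1.66%. The AT-extended MAF core ANNNTGCTGA (the first 2 N are A or T, the last is free) was at 12.7% against 0.377%. The exact T-MARE was in 63 windows and in 0 of the 5836 flanks, a count that allows a share of up to 0.0514% (3 windows). Every composite element contains the AP-1 element, the ARE core and the MAF core, and the exact T-MARE contains the composite, so the shares overlap. Over all regions of the optimal list, the composite element was at 28.2%, the ARE core at 60.3%, the MAF core at 62.8%, the T-MARE with 2 mismatches at 39.2%, AP-1 at 37.8% and the AT-extended core at 14.4%.

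Fewer members held the other elements. The CTCF core CCANNAGNNGGC (the N are in turn C or G, C or T, A or G, and G or T) was at 70 summits (2.40%) against 5 flanks (0.0857%) and 1.31% of all regions. The C-MARE, a longer MAF palindrome searched with 2 mismatches, was at 40 (1.37%) against 1 flank and 1.62% of all regions. SOX-OCT, the composite site of SOX2 and OCT4, also with 2 mismatches, was at 9 (0.308%) against 1 flank and 0.154% of all regions. Of the 15 elements, 10 passed in members against flanks (Fisher's exact test, two-sided, Benjamini-Hochberg over 15), with SOX-OCT at the largest adjusted p of 0.00053. ESRRB-type sites TCAAGGTCA were at 0.274% of summits and 0.274% of flanks. The GC box GGGCGGGGC was at 0.206% of summits, 0.137% of flanks and 0.410% of all regions. GATA sites NGATAAG (N is A or T) were at 1.47%, 1.90% and 1.82% in the same order. These elements did not pass against flanks. Neither did a shuffled MAF core GTTCAG, at 5.83% of summits, 5.33% of flanks and 5.67% of all regions, and the composite read backwards was found in no window.

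Summits and elements coincided closely. Of 759 members with a composite element within 300 bp, the nearest element was within 10 bp of the summit in 345 (45.5%) and within 25 bp in 81.6%, with a median distance of 11.5 bp. In the replicates' own thresholded lists, treated by the same rule, the composite share was 31.9% of 1353 members in replicate 1 and 28.3% of 1720 in replicate 2 (30.1% ± 2.55, SD, n = 2). Flanks in those lists were at 0.0739% and 0.174%, so the excess over flanks was many times the difference between replicates. The CTCF share was 2.00% and 1.92% (1.96% ± 0.0544, SD, n = 2).

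**Figure D2:**
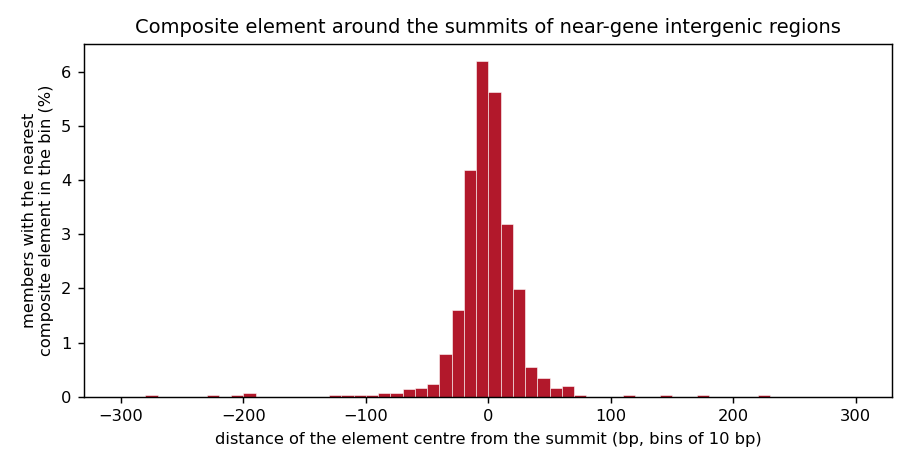
Share of the 2918 members whose nearest composite element has its centre in each 10 bp bin around the summit (distance in bp). The elements pile up at the summit, with a median distance of 11.5 bp.

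Compared with MAFK regions inside introns and in gene deserts, the near-gene intergenic regions of the optimal list held MAF-type elements less often and the CTCF core more often, a CTCF difference not past the threshold in either replicate's own list. Intronic regions were the 4415 unmasked summits inside gene bodies and outside exons, over 1 kb from every TSS and within 50 kb of a protein_coding one, and gene-desert regions the 2548 unmasked intergenic summits beyond 50 kb. The MAF core was at 57.9% of members (interval 56.1 to 59.7), 65.2% of intronic regions (63.8 to 66.6) and 70.8% of gene-desert regions (69.0 to 72.5). The ARE core was at 56.8% of members, 63.1% of intronic and 63.0% of gene-desert regions. The composite element stood at 24.6%, 27.2% and 28.4% in the same order, and the T-MARE with mismatches at 33.8%, 40.7% and 44.3%. CTCF was at 2.40% of members, 1.56% of intronic and 0.863% of gene-desert regions.

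Against intronic regions 8 of 15 elements passed (Fisher's exact test, two-sided, adjusted over 15), led by the MAF core (odds ratio 0.735, adjusted p = 5.94e-09). By the same exact test the T-MARE (odds ratio 0.744), ARE core (0.768), composite (0.871, adjusted p = 0.0290), AT-extended core (0.844) and AP-1 (0.895, adjusted p = 0.0493) were also lower in members. CTCF (1.55, adjusted p = 0.0290) and SOX-OCT (9 members against 1 intronic region, exact test, adjusted p = 0.00598) were higher. Against gene deserts 8 passed too. The MAF core (odds ratio 0.568, exact test, adjusted p = 4.82e-22), AT-extended core (0.531), T-MARE (0.640), ARE core (0.773), composite (0.821, adjusted p = 0.00294), C-MARE (0.523) and GATA (0.620, adjusted p = 0.0401) were lower in members, and CTCF was higher (2.82, adjusted p = 2.18e-05). The CTCF difference from gene deserts did not pass in replicate 2's own list (odds ratio 1.21, exact test, adjusted p = 0.688), in replicate 1's (1.85, adjusted p = 0.169) or in the strongest 50% of the list (1.40, adjusted p = 0.373). That from introns did not pass in either replicate's own list (1.16 in replicate 2's and 1.77 in replicate 1's; exact test, adjusted p = 0.637 and 0.124). SOX-OCT, which rests on 9 members, did not pass against introns in 6 alternatives. Among them were replicate 1's own list (odds ratio 2.24, exact test, adjusted p = 0.594) and the conservative list (3.76, adjusted p = 0.232). Against gene deserts, C-MARE and GATA passed in neither replicate's own list, and the composite did not pass in replicate 1's (0.831, exact test, adjusted p = 0.0872). Upstream and downstream members did not differ past the threshold in any of the 15 elements by this test, while 1 element passed among members more than 5 kb from every TSS.

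Base composition and tRNA genes moved with these differences. The median G+C content of the window was 48.5% in members, 47.5% in intronic and 43.6% in gene-desert regions, and its part in the result was not tested. With regions at tRNA genes left out, 5 elements passed against introns. The MAF core (exact test, adjusted p = 0.000789), T-MARE, ARE core, CTCF and SOX-OCT still passed, while the composite (25.8% against 27.3%, adjusted p = 0.337), the AT-extended core and AP-1 did not. Against gene deserts 6 passed without them, the composite (25.8% against 28.5%, exact test, adjusted p = 0.0575) and GATA being lost.

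**Figure D3:**
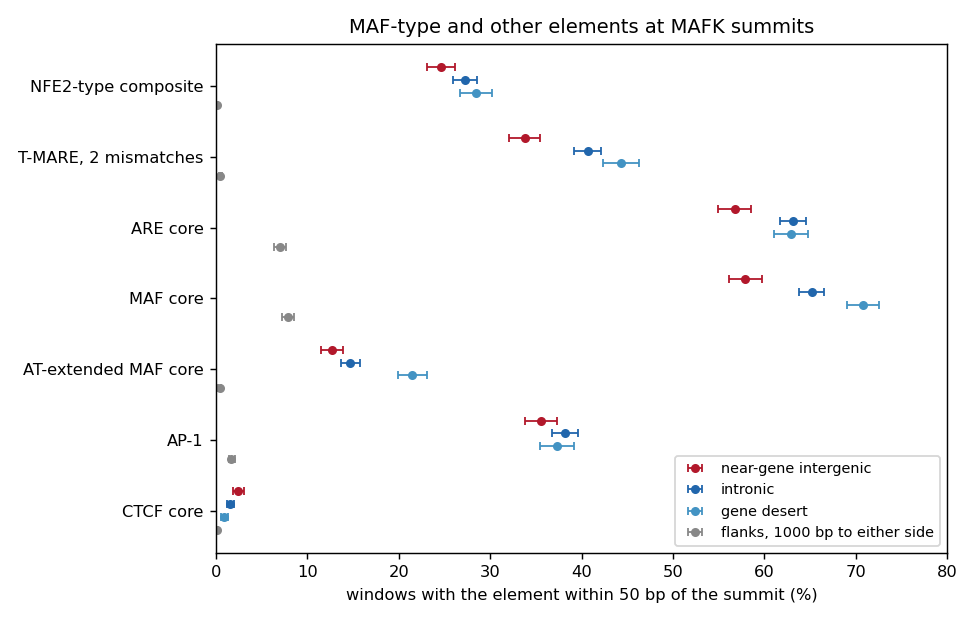
Share of windows with each element within 50 bp of the summit (percent) in near-gene intergenic, intronic and gene-desert MAFK regions and in the members' flanks, with 95% Wilson intervals. MAF-type elements are less frequent in members than in the other 2 classes (MAF core 57.9%, 65.2% and 70.8%) and rare in flanks (7.83%).

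The members with the CTCF core had few composite elements. CTCF is the zinc-finger factor of chromatin loop anchors. Of the 70 members with its core, 1 held a composite element, 18 an ARE core without it, 6 a MAF core without either and 45 none. Their median signal was 24, the range 5.68 to 271.2, and 21 of 70 were in both replicates' lists. Of the 532 members with neither an element nor a tRNA gene, 45 held the CTCF core.

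A group of strong members lay on transfer RNA genes. These genes are transcribed by RNA polymerase III from promoter boxes inside the gene, and the GENCODE vM21 set used for the rule lists no nuclear tRNA genes, so a summit on one can count as intergenic. A RefSeq tRNA gene lay within 100 bp of the summit in 143 members (4.90%, interval 4.17 to 5.74). The same held for 11 intronic regions (0.249%, 0.139 to 0.446), 6 gene-desert regions (0.235%, 0.108 to 0.513) and 51 promoter regions (2.26%, 1.72 to 2.96). The group was noticed after the values had been seen, so these shares are a description with no test. Seen from the genes, 196 of the 403 tRNA genes had a midpoint that met the location rule, and 144 of them (73.5%) had an optimal summit in or within 100 bp of them. Replicate 1's own list had a summit at 129 of the 196 and replicate 2's at 128. Of the other 207 tRNA genes, 88 (42.5%) had one. The repeat mask used here covered the midpoint of 18 of the 403, and it may differ from other masks of mm10. A mask that covers tRNA genes would take these members out, so their share depends on the mask used.

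At tRNA genes, MAFK regions had high signals and hardly any MAF-type element. Their signals ran from 4.22 to 170.5 with a median of 73.1, while the other 2775 members had a median of 28.0 and reached 415.2. Both replicates' lists held 112 of the 143 (78.3%), against 975 of the others (35.1%). None of the 143 held the composite element, 14 had an ARE core, 3 a MAF core without an ARE core and 126 none. Thus 126 of the 658 members without an element, which had a median signal of 22.0, were at tRNA genes, and the remaining 532 had a median of 19.2 and 15.4% in both lists. The B box was within 100 bp of the summit in 92 of the 143 (64.3%), in 5 of the 2775 others, in 9 of 5836 flanks and in 1.01% of all regions. Summits sat over the gene itself, at a median of 10 bp from its midpoint.

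The tRNA members covered all 20 amino acids. Leucine tRNA genes had the most, with 15 members, followed by arginine with 12 and proline and threonine with 11 each. Median signals by amino acid ran from 29.7 for the 4 tryptophan members to 104.1 for the 4 asparagine members. The single strongest was the threonine tRNA gene n-TTagt4, 22251 bp downstream of Hist1h2br at chr13:21855921-21856120, with 170.5 in the optimal list and 84.0 and 86.2 in replicates 1 and 2. Among the other strong ones, a tyrosine tRNA gene near Btn1a1 had 148.2, with 87.0 and 61.1 in replicates 1 and 2, and the printed glycine gene near Hfe2 had 128.0.

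Among the 10 genes with 5 or more members, most had nearly all of them at tRNA genes. Genes with fewer members were not examined for this. Of the 2305 genes nearest to a member, 1855 had 1 member, 356 had 2 and 94 had 3 or more. Zfp184 had the most, with 14 members, 12 of them at tRNA genes. Abt1 had 10 (9 at tRNA genes), Trim27 had 9 (9), Btn2a2 had 7 (6), Olfr1423 had 6 (6), and Hist1h2br and Gpx5 had 5 each (5 and 5). All of these except Olfr1423, on chromosome 19, lie in the region of the large histone gene cluster on chromosome 13. There, 63 tRNA members lay between 21.2 and 23.5 Mb. Without them chromosome 13 had 9.88 members per Mb of eligible sequence, and with them 14.7. Fam25c, Gja1 and Gtdc1 had 5 members each and none at a tRNA gene, with signals from 3.89 to 34.4.

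The replicates differed in the balance between tRNA members and others. Among the 140 tRNA members with a value in both relaxed lists, the median log2 ratio of replicate 1 to replicate 2 was 0.25, and replicate 1 was higher in 101 (72.1%). Among the 2622 other members it was −0.16, and replicate 1 was higher in 1072 (40.9%). The lists were made separately, so only the contrast between these groups can be read, and it rests on 1 library each. Over all 2762 members with both values, Spearman's rho between the replicates was 0.727, given as a description over regions of shared libraries. Thresholded lists of replicates 1 and 2 held 1309 and 1624 members, 1072 members were in neither, and the summits of the replicates differed from that of the optimal list by a median of 8 bp.

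**Figure D4:**
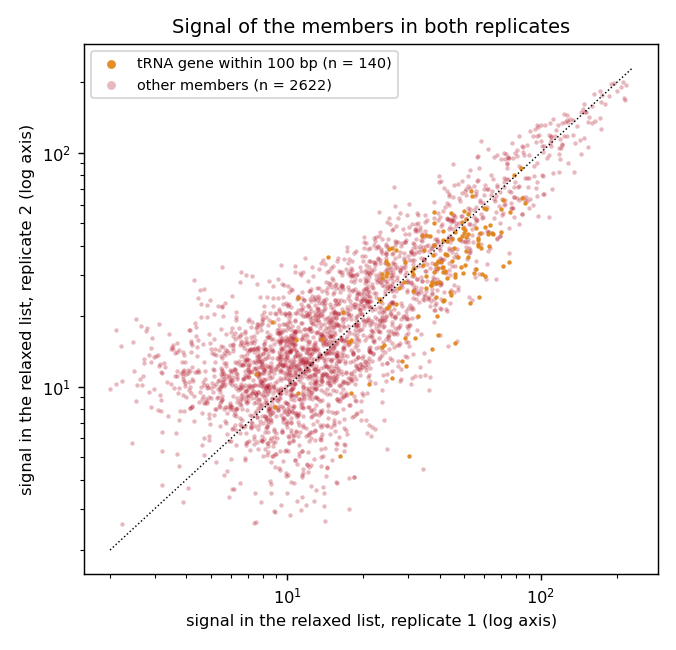
Signal of each member in the relaxed lists of replicate 1 and replicate 2 (log axes; the dotted line marks equal values), with members at tRNA genes in orange. The orange points lie mostly below the line (replicate 1 higher in 72.1%), the others mostly above it (replicate 1 higher in 40.9%).

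The tRNA members also bore on how members ranked against the other classes. Members were among the strongest 25% of the list in 27.4% of cases, against 23.0% of promoter (adjusted p = 0.000535, odds ratio 1.26), 25.9% of intronic (adjusted p = 0.177) and 23.2% of gene-desert regions (adjusted p = 0.000535, odds ratio 1.25; Fisher's exact test, two-sided, adjusted over 3). Without regions at tRNA genes members had 24.6%, against 21.7% of promoter regions (exact test, adjusted p = 0.0548) and 23.1% of gene-desert regions (adjusted p = 0.231). Overlap with both replicates' lists was 37.3% in members, against 32.4% of promoter (exact test, adjusted p = 0.000815), 36.1% of intronic (adjusted p = 0.334) and 33.0% of gene-desert regions (adjusted p = 0.00183). Without tRNA regions the gene-desert difference was 35.1% against 33.0% (exact test, adjusted p = 0.157), and the difference from promoters still passed. Neither strength difference passed within a single replicate's own list (exact test, adjusted p from 0.225 to 0.407), and among the strongest 50% of the list no difference in overlap passed (adjusted p from 0.499 to 0.830).

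Density fell with distance from genes. The location rule was met by 270429317 bases of the genome, and members were set against them. There were 14.6 members per Mb at 1 to 2 kb from the nearest protein_coding TSS (156 members), 12.5 at 2 to 5 kb, 11.9 at 5 to 10 kb, 11.3 at 10 to 20 kb, 10.4 at 20 to 30 kb, 8.86 at 30 to 40 kb and 8.19 at 40 to 50 kb (257 members). The first 3 bins exceeded their share of eligible bases (ratios 1.35, 1.16 and 1.10; exact binomial test, two-sided, adjusted p = 0.000585, 0.00585 and 0.0234). The last 2 fell short of it (ratios 0.821 and 0.759, exact binomial test, adjusted p = 0.000218 and 8.15e-06). The bin at 2 to 5 kb did not pass in the strongest 50% of the list (ratio 1.09, exact binomial test, adjusted p = 0.315) or in replicate 1's own list (ratio 1.15, adjusted p = 0.0664). Without tRNA members the bin at 5 to 10 kb was lost (ratio 1.09, exact binomial test, adjusted p = 0.0738). In the opposite direction, the share with the composite element was 19.9% at 1 to 2 kb and 28.4% at 40 to 50 kb, which was not tested.

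In the optimal list, the side and order of the genes gave no ratio past the threshold. Upstream members made up 66.4% (interval 64.7 to 68.1), and upstream positions made up 66.4% of eligible bases (ratio 1.00, exact binomial test, p = 0.969). Median signal was 29.8 upstream and 27.9 downstream. Divergent gene pairs flanked 30.7% of members against 29.7% of eligible bases, convergent pairs 16.4% against 16.0%, and tandem pairs 52.8% against 54.2%, and none of the 3 passed (exact binomial test, smallest adjusted p = 0.348). With soft-masked summits kept 2 of the 3 arrangements passed, and with a limit of 20 kb 1 did. The MAF side of the composite element pointed toward the nearest protein_coding TSS in 332 of 654 members with a non-palindromic element (50.8%, interval 46.9 to 54.6, exact binomial test, p = 0.725).

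**Figure D5:**
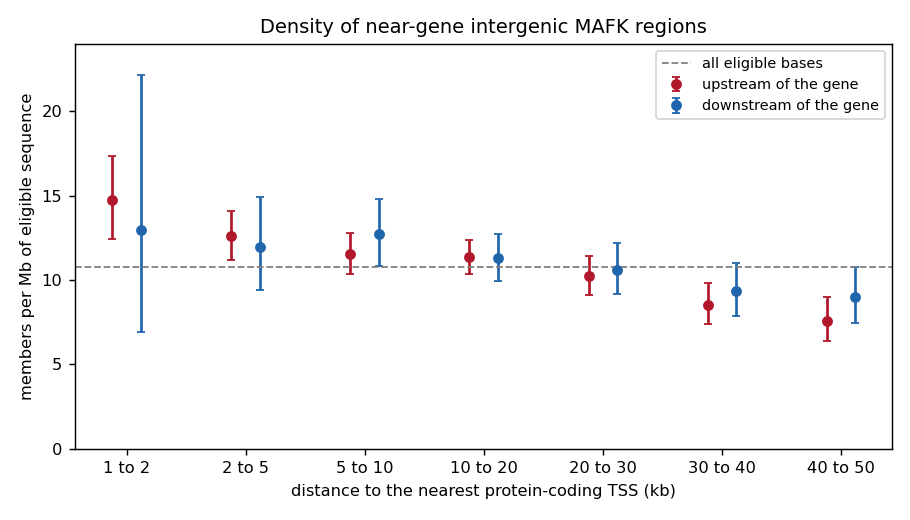
Members per Mb of eligible sequence by distance to the nearest protein-coding TSS (kb), upstream and downstream of the gene, with exact 95% Poisson intervals. The dashed line is the density over all eligible bases (10.8 per Mb); both sides decline with distance, upstream to 7.61 and downstream to 9.01 per Mb at 40 to 50 kb.

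The X chromosome held few members. It had 60, or 2.06%, against 6.67% of eligible bases (ratio 0.308, exact binomial test, two-sided, p = 9.08e-31). That is 3.33 per Mb, against 11.3 per Mb on autosomes, which ran from 8.72 to 15.7. The line is male with 1 X chromosome, so copy number, mappability and binding cannot be told apart here. On X the median signal was 27.1, against 28.9 for autosomal members, and 31.7% of X members held the composite element.

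Genes of antioxidant defence had some of the strongest members. Of 28 antioxidant and NRF2-type genes, 9 (32.1%) were nearest to at least 1 member, against 10.6% of all protein_coding genes. They had 15 members with a median signal of 43.0. Of these 15, 10 held the composite element and 13 were upstream, against 24.6% and 66.4% of all members, which was not tested. A nearest gene is a matter of distance and does not show a target. Hmox1, which encodes the heme-degrading enzyme heme oxygenase 1, had 2. The distal one, 9638 bp upstream at chr8:75083784-75084152, had a signal of 390.4 in the optimal list and 195.3 and 199.1 in replicates 1 and 2. The proximal one, 3887 bp upstream at chr8:75089543-75089889, had 302.5, and 151.2 and 150.0 in the replicates. The printed distal window holds 3 ARE cores, 1 of them in a composite element.

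Gclc, the catalytic subunit gene of the first enzyme of glutathione synthesis, had 2 unlike members. The one 3795 bp upstream at chr9:77750574-77750882 had 301.3, with 155.1 and 141.7 in the replicates. The one 2038 bp upstream at chr9:77752349-77752644 had 20.6, with 7.61 and 13.4, and missed replicate 1's list, although both hold a composite element. Gclm, the modifier subunit gene of the same enzyme, had 87.9 at 1923 bp upstream with an ARE core only. Abcc1 and Abcc4, efflux transporter genes, had 122.7 and 119.4, and Pgd, of the pentose phosphate pathway, had 82.8. The second members of Abcc1 and Abcc4 had 28.3 and 15.5. Prdx6, a peroxiredoxin gene, had 3 members with signals of 43.0, 37.7 and 18.7. Cat, the catalase gene, had 1 at 23.8, and Srxn1, which encodes sulfiredoxin, had 1 at 12.0. Neither of these last 2 members was in either replicate's list.

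Heme and iron genes followed the same pattern at ferritin. Of 20 genes, 6 (30%) were nearest to a member, against 10.6% of all protein_coding genes, and they had 9 members, the 2 of Hmox1 included. Fth1, the ferritin heavy chain gene, had 259.2 at 1986 bp upstream (chr19:9978457-9978778), with 125.2 and 135.8 in replicates 1 and 2. Ftl1, the ferritin light chain gene, had 226.0 at 1093 bp upstream (chr7:45460854-45461126), with 109.4 and 116.5. The remaining members, near Alas1, the first enzyme of heme synthesis, Slc48a1, a heme transporter, Fech, ferrochelatase, and again Fth1, had signals from 16.0 to 30.4, and none of them was in both lists. Hbb-y, an embryonic globin gene, had 201.4 at 7856 bp upstream (chr7:103860950-103861214), with 82.0 and 118.1, and its window holds 2 adjoining composite elements. Of 15 erythroid and globin genes, 2 (13.3%) were nearest to a member, near the 10.6% of all protein_coding genes.

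Most pluripotency genes were nearest to a member, usually one of low signal. Of 20 genes, 15 (75%) were nearest to a member, against 10.6% of all protein_coding genes, with 22 members of median signal 22.8, below the 28.8 of all members, and 5 of the 22 were in both replicates' lists. The exception at the top was Tfcp2l1, with 252.9 at 6691 bp upstream (chr1:118621117-118621390), 133.6 and 119.3 in replicates 1 and 2, and the exact T-MARE printed above. Zfp42, known as REX1, had 130.9 at 45776 bp downstream, Tbx3 had 120.3 at 30139 bp downstream, and Lefty2, a Nodal antagonist, had 47.6 at 3156 bp upstream. The first 2 held a composite element and Lefty2 an ARE core. These 4 were named for their signal. Of all 22 members, 11 held a composite element or an ARE core and 6 a composite element, against 56.8% and 24.6% of all near-gene intergenic members.

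Genes of MAFK's own family and partners were taken as a list of 10, made up of small MAF and CNC genes and Keap1. Of these, 2 (20%) were nearest to a member, against 10.6% of all protein_coding genes. Keap1 is in neither family, so Bach1 was the only small MAF or CNC gene of the list nearest to a member. Bach1, a heme-sensing CNC repressor, had 1 with a signal of 38.9, in both lists and with an ARE core. Keap1, the cytoplasmic inhibitor of NRF2, had 1 with 21.3. Of 10 AP-1 genes 2 (20%) were nearest to a member. Fos had 253.6 at 18688 bp upstream (chr12:85455072-85455329), with 112.3 and 139.9 in replicates 1 and 2, and Batf3 had 41.4. Both held an ARE core. Of 15 mesendoderm genes 3 (20%) were nearest to a member, against the same 10.6%. The highest of the mesendoderm members was near Gata6 at 54.4. Of 12 neuroectoderm genes 1 (8.33%) was nearest to a member, and of 15 housekeeping genes 1 (6.67%). The counts of all lists in this paragraph were not tested and are too small to read as differences from 10.6%.

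Members and other regions near the limits of the rule had signals within the members' range. At the 1 kb limit, the nearest members lay 1004 bp from the TSS of Gm16181 (18.9) and 1007 bp from that of Lrrk1 (14.6), and the nearest regions left out lay 998 bp from Gapdh (100.3) and 997 bp from Fubp3 (19.9). Just inside 50 kb lay those 49963 bp from Gja1 (27.8) and 49956 bp from 4930564D02Rik (17.1), and just beyond it those 50375 bp from Sema3e (59.5) and 50387 bp from Prdx6 (103.3). Regions overlap at places: 301 members had another summit within 1 kb, the nearest at 199 bp, so neighbouring members are not independent.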

How the data were processed

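Only lists of regions were analysed, and all are on mm10. Neither an aligner nor a peak caller is named here, being not given in the sources used. Per the deposited text notes, a first processing run gave relaxed lists of regions with background for each replicate, and optimal and conservative lists made from both replicates by the irreproducible discovery rate (IDR). A second run gave the replicates' own thresholded lists and one for both, so an overlap between the optimal list and the replicates' lists crosses both runs. The signal value and the scaled IDR score are scores the authors deposited. By the definition of the region format, the deposited significance column is a −log10 q-value, which entered no test. Summits came from the deposited offset. Coordinates are 1-based.

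Genes came from GENCODE vM21. Sequence, soft mask and tRNA genes came from the RefSeq copy of GRCm38.p6, whose mask covers 33.4% of these chromosomes and may differ from other mm10 masks. Eligible bases were counted exactly over the genome, assembly gaps left out. Elements were searched on both strands. Shares were compared by Fisher's exact test and positions by exact binomial tests, both two-sided, with Benjamini-Hochberg adjustment within a comparison and 0.05 as the threshold, in python 3.11.15 with numpy 2.4.6, scipy 1.17.1 and pandas 2.3.3. The scripts were tested on simulated data. Wilson intervals include only counting error. Because regions do not replicate one another, a p-value describes these lists.

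The members, the elements and the gene lists were chosen with earlier results of these data known. Regions named are the 12 strongest in both replicates' lists, the 5 strongest upstream and downstream, the strongest of each element class, members of the gene lists (up to 4 a list; all for the antioxidant, heme and small MAF lists), genes with the most members and members at the limits of the rule. The grouping by tRNA genes, the counts of repeated elements and the forms of the composite element were added after the values had been seen. A few members that the rule names are not reported here.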

Additional observations from a re-analysis of the deposited data

How the results depend on the processing

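No paired analysis was possible because the samples form 1 group. Over 48 values and their alternatives, 420 of 487 recomputed values were labelled unchanged. For a test, unchanged means the same direction and the same side of the threshold. A count of elements, bins or arrangements passing was unchanged if equal to the main count or within a fixed ratio of it. The share at tRNA genes was unchanged if inside the interval of the main share. The odds ratios of all 10 elements against flanks kept their direction under every alternative, and SOX-OCT was lost in 2. The CTCF excess over introns was lost in 5 alternatives and that over gene deserts in 3. The higher share of composite than of no-element members among the strongest 25% passed in every alternative run (odds ratio 1.94 to 9.47). Against introns, 5 elements passed in place of 8 with the conservative list, with a window of 25 bp and without regions at tRNA genes. Against gene deserts, 4 to 7 passed in a single replicate's own list. Keeping soft-masked summits let 2 gene arrangements pass, and the 20 kb limit let 1 pass. Beyond 5 kb from every TSS 1 element differed between upstream and downstream. The ratio of the upstream share to eligible bases was 0.989 in the second processing run, 0.985 beyond 5 kb and 0.999 to 1.03 in the replicates' own lists. The ratio of composite elements pointing toward the TSS to those pointing away was 0.994 with the conservative list, 0.959 within 20 kb and 0.979 to 0.995 in the replicates' own lists. None of these passed. For the share among the strongest 25%, the odds ratio in the replicates' own lists was 1.09 to 1.12 against promoters and 1.15 to 1.17 against gene deserts. With the strongest 10% it was 1.18 against promoters. Without tRNA regions it was 1.18 against promoters, 0.935 against introns and 1.09 against gene deserts. For overlap with both lists, it was 0.970, 0.984 and 1.12 against promoters, introns and gene deserts among the strongest 50%, and 0.960 and 1.10 against introns and gene deserts without tRNA regions. The causes were not tested. The tRNA setting was chosen after seeing the data. With a tRNA gene within 250 bp, 4.97% of members counted.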

Other observations

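Members without any MAF, ARE or AP-1 element and away from tRNA genes were the weakest and often lay beside another region. Of these 532, 111 (20.9%) had another summit within 1 kb, against 3.35% of members with a composite element, and 60.7% were in neither replicate's own list. Windows with 3 or more CpG made up 28.4% of them, against 18.4% of members with an element. Members at tRNA genes were also close together, with another summit within 1 kb in 79 of 143, against 222 of the 2775 other members.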
